A study of Mus musculus with 8 samples.

Results

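The genes described here are 48 mouse genes of the lysosome. They encode membrane proteins, soluble hydrolases with their lipid-binding helpers, subunits of the proton pump, and the MiT/TFE transcription factors that act on such genes. They were taken by name from the 23952 gene symbols of an expression table, and all 48 were found. For the 13 genes with several transcripts, 1 transcript was used, chosen by its mean RPKM (the highest). All 48 were among the 13311 genes that reached 1 RPKM (reads per kilobase of transcript, scaled to library size) in at least 2 libraries and were tested. Atp6v0d2 reached that level in the TAM libraries alone, so its counts as a called gene follow in part from the filter.

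The samples were Lewis lung carcinomas, tumors that a mouse lung carcinoma line had formed under the skin of both flanks of transgenic Col1a1-GFP mice. In all 4 groups the carcinoma cells carried dTomato from a pCEFL vector and had been held under G418, and per the protocol shared by all samples Alexa 647-collagen was injected into the tumors 24 h before the cells were sorted. Total tumor denotes the whole carcinoma, LLC the dTomato+ carcinoma cells, Fibroblast the GFP+ cells, and TAM the dTomato-;GFP-;F4/80+;collagen+ cells, which the labels call M2 tumor-associated macrophages. The gates limit what the groups stand for: Fibroblast holds cells with an active Col1a1 transgene, TAM holds only macrophages that had taken up collagen, and LLC descends from a transfected culture sorted for dTomato. Each group had 2 libraries, made from 200 ng of RNA with oligo-dT priming and read at 50 bp. The labels do not give the age or strain of the mice or say whether the 2 libraries came from separate animals, so p-values rest on the spread between libraries, which may be purely technical.

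Macrophage and fibroblast markers were highest in the TAM and Fibroblast libraries, and some markers of other cells also differed between the sorted groups. Emr1, which encodes F4/80, stood at 162 and 229.6 RPKM in TAM and at no more than 8.74 in Fibroblast or LLC, and Col1a1 stood at 5315 and 4200.4 RPKM in Fibroblast and at no more than 192 in TAM or LLC. The summed level of 12 macrophage markers was 11945 to 16535 RPKM in TAM, 180.0 to 199 in Fibroblast, 83.0 to 394 in LLC and 1132 to 3999.8 in Total tumor. That of 12 fibroblast markers was 25239 to 26845 RPKM in Fibroblast, 4044 to 5525 in LLC and 147 to 724 in TAM. No marker of these 2 lists was at 0 in any library. The summed level of 7 neutrophil markers was 60.6 to 69.2 RPKM in TAM and 1.82 to 5.78 in Fibroblast and LLC. S100a8, S100a9 and Csf3r (3 of 5 tested) were called higher in TAM than in both, as were 11.4% of all genes tested. Mpo was at 0 in all 6 of these libraries. Of 4 mast cell markers tested, Cma1 and Cpa3 were also called higher in TAM than in both. So were Cd79b of 6 B and plasma cell markers, and Cd2 and Cd4 of 5 T and NK cell markers. Against Total tumor, S100a8, S100a9, Cxcr2, Cma1, Cpa3, Mcpt4 and Nkg7 were called lower in TAM (23.9% of all genes). No gene of these lists was called higher there. Neutrophil markers summed to 133 and 597 RPKM in Total tumor. The summed level of 8 endothelial markers was 53.5 to 58.5 RPKM in Fibroblast, 14.5 to 30.9 in TAM and 1.55 to 4.98 in LLC. Of 7 tested, 5 (Kdr, Tek, Cdh5, Emcn and Pecam1) were called higher in Fibroblast than in LLC (13% of all genes tested). In TAM, Pecam1 was called higher than in both (11.4%), and Kdr and Tek lower than in Fibroblast (17.3%). Of 4 epithelial markers tested, Krt8 and Krt18 were called lower in Fibroblast than in LLC and Krt19 higher (25.7% and 13% of all genes tested). Krt19 stood at 16.5 and 99.6 RPKM in Fibroblast and at 0.07 and 1.53 in LLC. The 2 Fibroblast libraries also differed in Krt8 (2.14 and 21.2 RPKM), Krt18 (5.59 and 44.9), Epcam (0.328 and 8.93) and Cdh1 (0.262 and 4.50). The summed level of 5 epithelial markers was 24.8 and 179 RPKM in Fibroblast 1 and 2, and 179 and 129 in LLC 1 and 2. The part of these cells in the levels of the lysosomal genes was not tested. Depth, estimated from the steps between low values, was about 8520000 to 10370000 reads in the first library of each group and 4280000 to 4720000 in the second, where 1 read on a 2 kb transcript was worth 0.048 to 0.117 RPKM. Total tumor 2 depended on transcript length: between 1000 and 5000 bases its log2 values fell by 1.03 relative to the mean of all libraries, against changes of -0.44 to 0.44 in the other 7 libraries.

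Lysosomes are acidic compartments in which cells break down material taken up from outside and worn parts of their own. A proton pump in the lysosomal membrane keeps the inside acidic, soluble hydrolases cut sugars, lipids, proteins and sulfated chains there, and membrane proteins protect the boundary and carry the products out. Macrophages are known for a large lysosomal system, which digests engulfed cells, lipoproteins and matrix proteins such as collagen. Tfeb, Tfe3 and Mitf are related transcription factors that switch on many lysosomal genes.

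Most of the 48 genes stood higher in TAM than in the other sorted populations. Against Fibroblast, 32 were called higher in TAM and 2 called lower (limma, two-sided, Benjamini-Hochberg adjusted p under 0.05 over all genes tested), while 17.4% of all genes tested were called higher and 17.3% lower. Against LLC, 33 were higher and 2 lower, beside 15.4% and 27.5% of all genes. Without Atp6v0d2 the counts were 31 and 2, and 32 and 2, of 47. The median log2(RPKM + 1) difference of the 48 genes was 1.42 against Fibroblast and 1.33 against LLC, while that of all genes tested was 0.13 and -0.38. Upper-quartile rescaling moved the medians of all genes to -0.10 and -0.21 and those of the lysosomal genes to 1.13 and 1.52. With quantile normalization the medians were 0.10 and -0.15 for all genes and 1.09 and 1.38 for the lysosomal ones. Called lower against Fibroblast were Gaa and Arsb, and against LLC Gaa and Arsa. That count of 2 lower genes became 4 against Fibroblast under either rescaling, and 1 without either Fibroblast library or without TAM 2. Against LLC it became 1 without either LLC library or without TAM 2, and 4 after a correction for transcript length.

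Of the 48 genes, 29 were called highest in TAM among the 3 sorted populations (above both of the others), as were 11.4% of all genes tested. Gaa alone was called lower in TAM than in both (8.74% of all genes). By the same rule Arsb was the only gene highest in Fibroblast (9% of all genes) and none was highest in LLC (15.8%), while 6 were lowest in Fibroblast (4.63%) and 8 lowest in LLC (3.83%). No gene was highest in LLC at an unadjusted p under 0.05 against both others either, and in a limma fit of only the groups compared there was 1. The 29 genes highest in TAM became 19 without LLC 1 or TAM 1, and 20 to 23 without 1 of the other sorted libraries. On the level of means, the highest of the 3 sorted populations was TAM for 41 genes, Fibroblast for Scarb2, Gaa, Aga, Arsb and Smpd1, and LLC for Cd63 and Arsa. The 48 genes together summed to 8849 and 8356 RPKM in TAM and to between 2082 and 3454 RPKM in the other 6 libraries. That was 1.97 and 2.09% of the summed RPKM of all symbols in TAM, and 0.592 to 0.752% elsewhere.

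**Figure D1:**
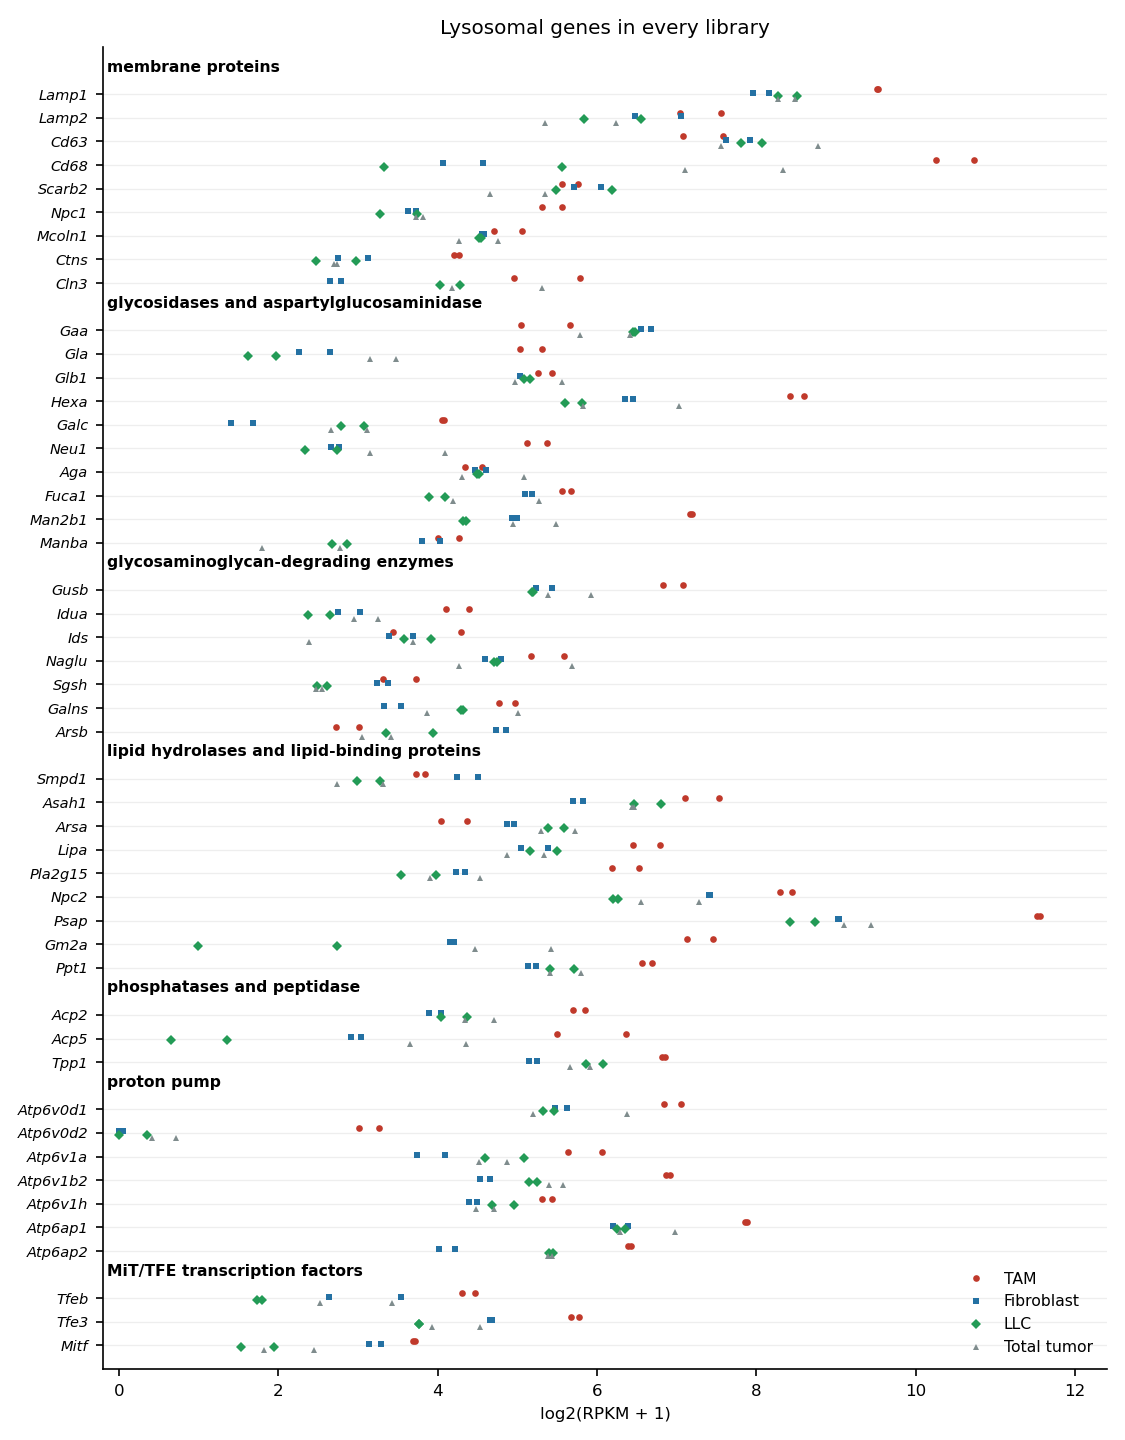
Level of each of the 48 genes in every library, as log2(RPKM + 1) on the x axis, with genes grouped by role on the y axis. Each point is 1 library, and colour and shape mark the group; Cd68, Gm2a and Acp5 show the widest gaps between the TAM points and those of LLC, while the TAM points of Gaa lie to the left of the Fibroblast and LLC points.

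The members differed widely in how far TAM stood from the rest. Non-overlapping libraries, with both TAM values above both others, were seen in 37 genes against Fibroblast (41.5% of all genes tested) and in 41 against LLC (25.5%). Both TAM values were below both others in 5 and 4 genes (31.6% and 50.9% of all genes). Called in TAM minus Fibroblast under all 21 alternative settings were 23 of the 34 genes, and in TAM minus LLC 24 of 35. No direction reversed for a called gene in any of them.

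**Figure D2:**
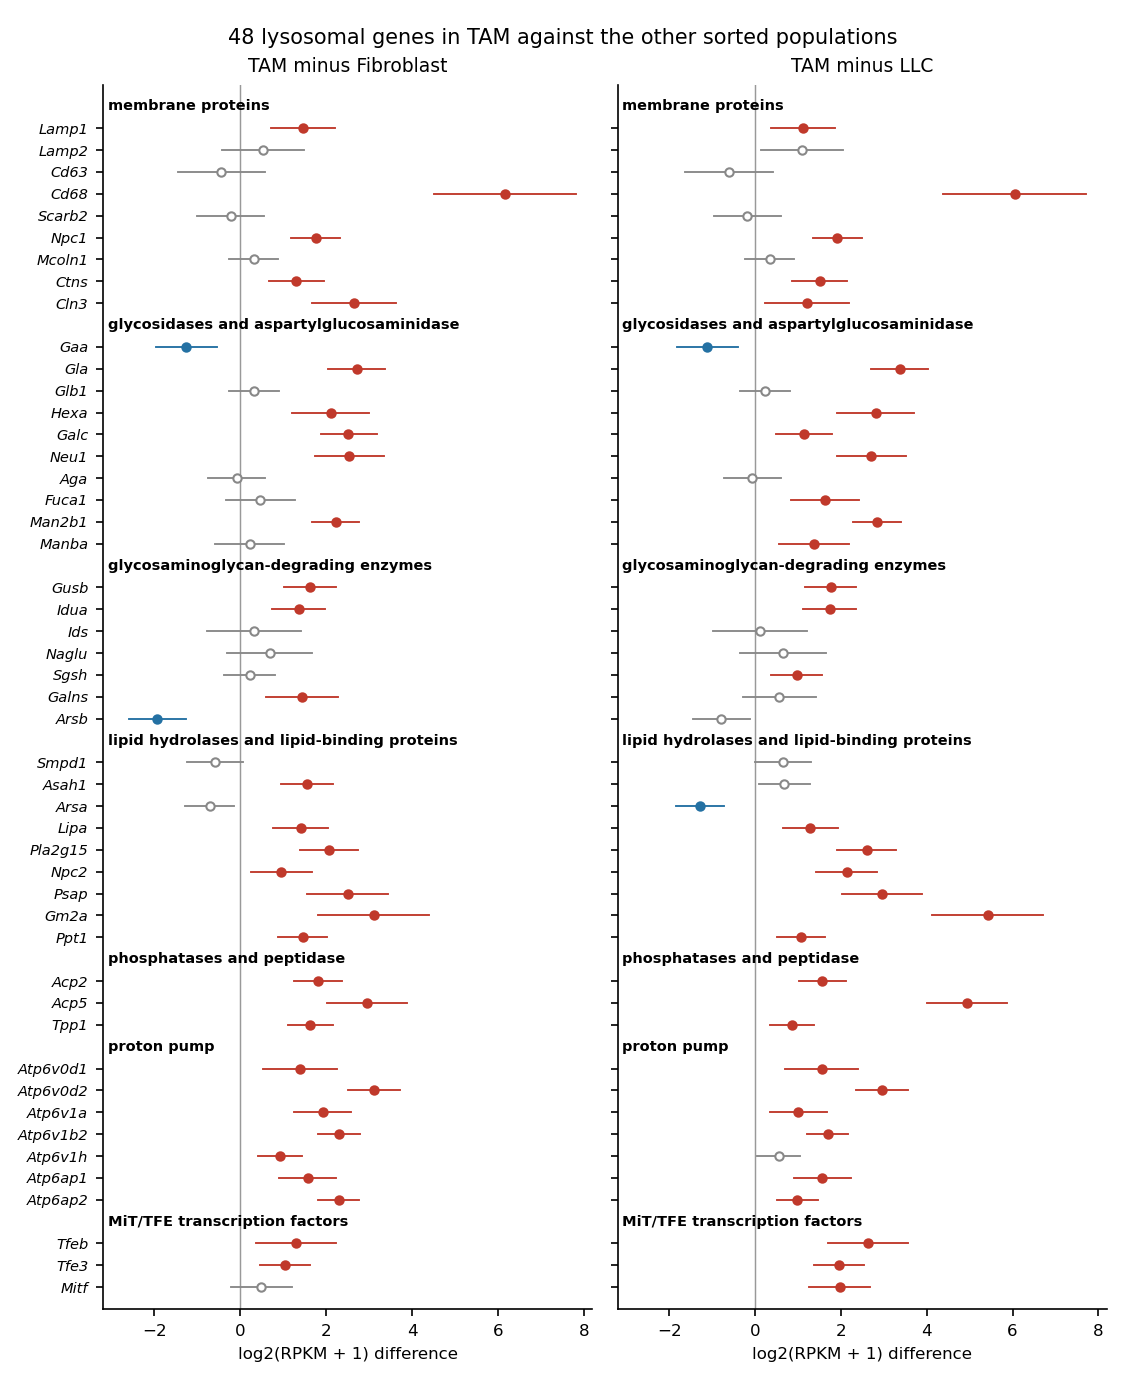
Difference of each gene between TAM and Fibroblast (left) and between TAM and LLC (right) on the log2(RPKM + 1) scale, with 95% intervals from limma as lines. Red marks genes called higher in TAM, blue genes called lower and open grey circles genes not called; both panels use the same TAM libraries. Cd68 has the largest difference in both panels (6.17 and 6.05).

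All 3 MiT/TFE factors were called higher in TAM than in LLC and higher in Fibroblast than in LLC (15.4% and 13% of all genes tested). Tfeb and Tfe3 were also called higher in TAM than in Fibroblast (17.4%). All 3 calls between Fibroblast and LLC ended without LLC 1 or Fibroblast 1 (Tfeb also without LLC 2 or either TAM library, Tfe3 without LLC 2 or Fibroblast 2, Mitf without Fibroblast 2), with log2 differences over the fits without 1 library of 0.87 to 1.78 for Tfeb, 0.89 to 0.91 for Tfe3 and 1.27 to 1.69 for Mitf. Tfeb, a main activator of lysosomal and autophagy genes, stood at 21.2 and 18.8 RPKM in TAM, 10.6 and 5.21 in Fibroblast, 2.33 and 2.47 in LLC, and 4.76 and 9.81 in Total tumor. The 2 TAM libraries were above all others, the 2 LLC libraries below all others, and the Fibroblast libraries lay apart from each other. Its log2 difference was 1.30 (SE 0.40) between TAM and Fibroblast (limma adjusted p = 0.0393) and 2.63 (SE 0.40) between TAM and LLC (limma adjusted p = 0.00163). The call against Fibroblast ended without Fibroblast 2, without either LLC library and without either TAM library, with log2 differences of 0.85 to 1.76 over the fits without 1 library.

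Tfe3, the most abundant of the family here, stood at 53.5 and 49.9 RPKM in TAM, 24.7 and 24.2 in Fibroblast, 12.6 and 12.6 in LLC, and 14.2 and 22.1 in Total tumor. The sorted groups did not overlap and ran in the order TAM, Fibroblast, LLC, each neighbour in that order called different. Its log2 difference was 1.05 (SE 0.25) against Fibroblast (limma adjusted p = 0.013) and 1.95 (SE 0.25) against LLC (limma adjusted p = 0.000695). The first of these calls ended without either TAM or either Fibroblast library, at log2 differences of 1.00 to 1.10.

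Mitf, the family member best known from pigment cells and osteoclasts, stood at 11.96 and 12.19 RPKM in TAM, 8.82 and 7.83 in Fibroblast, 1.89 and 2.85 in LLC, and 4.45 and 2.54 in Total tumor. TAM and Fibroblast both lay above LLC, by log2 differences of 1.97 (SE 0.31, limma adjusted p = 0.00174) and 1.48 (SE 0.31, limma adjusted p = 0.00817). Between TAM and Fibroblast the libraries did not overlap, but the difference of 0.49 (95% interval -0.22 to 1.21) did not pass (limma adjusted p = 0.271). Of the pigment cell markers, Tyr, Dct and Tyrp1 were at 0 in all 8 libraries, and the summed level of 5 such markers was 0.77 to 3.31 RPKM.

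Tfec, the fourth gene of the family and not among the 48, showed a wider gap than these 3. It stood at 34.6 and 42.4 RPKM in TAM, 0.108 and 0.594 in Fibroblast, 0 and 0.92 in LLC, and 1.86 and 1.55 in Total tumor. The log2 difference was 4.89 (SE 0.38) between TAM and Fibroblast (limma adjusted p = 0.000118) and 4.83 (SE 0.38) between TAM and LLC (limma adjusted p = 0.000137).

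**Figure D3:**
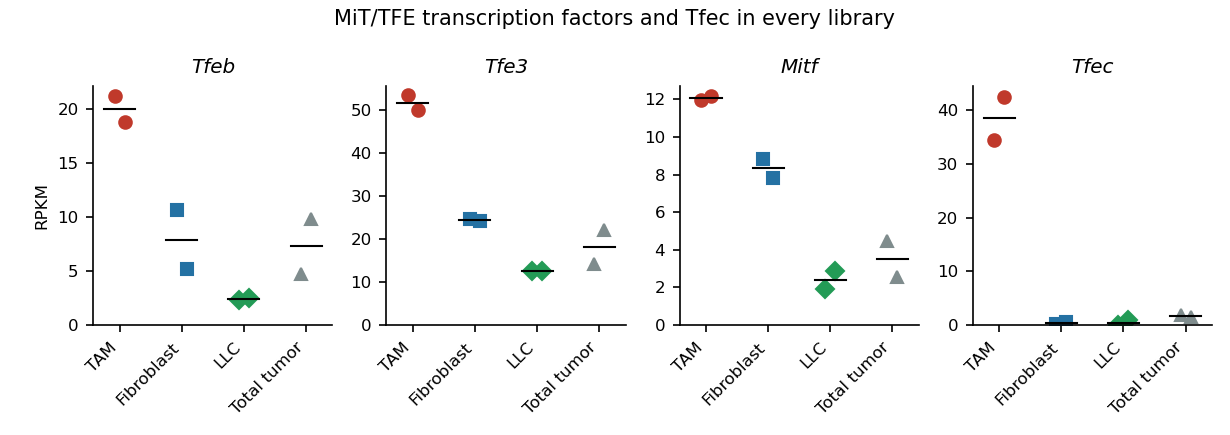
RPKM of Tfeb, Tfe3, Mitf and Tfec in each library (points, 2 per group) with the group mean as a line; each panel has its own y axis starting at 0. The TAM points are the highest of each panel, and the LLC points are the lowest for Tfeb and Tfe3.

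MiT/TFE factors are known to read the letters CACGTG, which other factors read as well, most of all inside the longer palindromes TCACGTGA and GTCACGTGAC. These 3 motifs read the same on both strands and each is nested in the next, so a match to the longest is also counted for the shorter ones. RefSeq promoter windows of build GRCm38.p6, from 250 bases before to 50 after each gene's start site, were used for 41 of the 48 genes. No window was used for Npc1, Aga, Galns, Asah1, Atp6v0d2, Atp6v1b2 and Atp6v1h. The windows of a whole chromosome were left out of the search, also among all genes. CACGTG was found in 11 of the 41 (26.8%) and in 8.09% of the 27025 genes with a window used here. TCACGTGA was found in 5 of the 41 (12.2%), beside 1.12% of all genes, and GTCACGTGAC in Cln3 alone (2.44%), beside 0.37%. The following 30-base stretches are shown since they hold the longest match of the gene, in capitals, read 5′ to 3′ on the gene's strand. Cln3, Mcoln1, Atp6v0d1 and Atp6v1a hold the longer palindromes, and Gaa and Arsa, which were called lower in TAM, hold the short one.
Cln3 (chr7:126583340-126583369, minus strand): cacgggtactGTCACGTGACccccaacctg
Mcoln1 (chr8:3500462-3500491, plus strand): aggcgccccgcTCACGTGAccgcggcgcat
Atp6v0d1 (chr8:105566050-105566079, minus strand): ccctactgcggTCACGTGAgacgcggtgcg
Atp6v1a (chr16:44139373-44139402, minus strand): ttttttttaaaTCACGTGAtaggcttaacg
Gaa (chr11:119267811-119267840, plus strand): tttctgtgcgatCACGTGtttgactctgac
Arsa (chr15:89477423-89477452, minus strand): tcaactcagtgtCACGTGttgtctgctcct

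In Atp6v0d1 the match begins 4 bases before the start site, and in Cln3 it begins 123 bases before it. Lamp1 and Gla are shown over the whole 250 bases before the start site, because Lamp1 holds CACGTG 4 times there and Gla holds TCACGTGA 2 times.
Lamp1 (chr8:13158911-13159160, plus strand): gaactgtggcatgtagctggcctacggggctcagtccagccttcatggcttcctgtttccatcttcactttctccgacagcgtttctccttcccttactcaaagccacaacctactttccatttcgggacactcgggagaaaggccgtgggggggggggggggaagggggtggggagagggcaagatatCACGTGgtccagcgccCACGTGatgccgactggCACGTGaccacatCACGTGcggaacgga
Gla (chrX:134601006-134601255, minus strand): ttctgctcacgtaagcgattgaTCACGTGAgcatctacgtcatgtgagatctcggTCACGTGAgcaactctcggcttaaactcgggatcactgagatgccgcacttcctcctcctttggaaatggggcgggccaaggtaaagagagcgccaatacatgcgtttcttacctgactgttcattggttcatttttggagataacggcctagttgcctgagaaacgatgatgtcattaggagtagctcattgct

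Genes with and without these letters were called higher in TAM. Of the 11 genes with CACGTG, namely Lamp1, Mcoln1, Cln3, Gaa, Gla, Glb1, Naglu, Sgsh, Arsa, Atp6v0d1 and Atp6v1a, 5 were called higher and 1 lower in TAM than in Fibroblast (median log2 difference 0.69). Of the 30 without it, 21 were called higher and 1 lower (median 1.43). Against LLC these counts were 6 higher and 2 lower of 11 (median 0.97) and 24 higher and 0 lower by limma of 30 (Arsb at an unadjusted p under 0.05, median 1.60). Of all genes tested, with or without the letters, 17.4% were called higher and 17.3% lower in TAM than in Fibroblast, and 15.4% and 27.5% than in LLC. The same split by letters was not made over all genes, and the part of the letters in these differences was not tested. A match describes the letters of these windows and shows no binding.

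Among the 9 membrane proteins, 5 were called higher in TAM than in Fibroblast and the same number against LLC (17.4% and 15.4% of all genes tested). None was lower in either comparison by limma, also at an unadjusted p under 0.05, beside 17.3% and 27.5% of all genes called lower. Cd68, a heavily glycosylated protein of late endosomes and lysosomes and a common macrophage marker, stood at 1693 and 1220.0 RPKM in TAM, 15.8 and 22.7 in Fibroblast, 9.02 and 46.2 in LLC, and 137 and 321 in Total tumor. Every TAM value was far above every other value, and the 2 LLC libraries lay far apart from each other. On the log2 scale the difference was 6.17 (SE 0.71) against Fibroblast (limma adjusted p = 0.000378) and 6.05 (SE 0.71) against LLC (limma adjusted p = 0.000476). Its share of the summed level of the 48 genes was 19.1 and 14.6% in TAM and 0.433 to 1.96% in Fibroblast and LLC.

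Lamp1, whose product is among the most abundant proteins of the lysosomal membrane, stood at 729 and 735 RPKM in TAM, 248 and 286 in Fibroblast, 309 and 365 in LLC, and 307 and 356 in Total tumor. It was abundant in all groups, ranking between 63 and 174 of all symbols. The TAM mean was 2.74 times that of Fibroblast (log2 1.46, SE 0.32, limma adjusted p = 0.00875) and 2.17 times that of LLC (log2 1.12, SE 0.32, limma adjusted p = 0.024). The first call ended without either Fibroblast library (log2 1.35 to 1.56 over the fits without 1 library). The second ended without any 1 of the 6 sorted libraries (log2 1.00 to 1.24), and under quantile normalization, where the log2 difference was 0.23.

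Lamp2, its partner in the membrane and a receptor for chaperone-mediated autophagy, stood at 131 and 187 RPKM in TAM, 88.3 and 132 in Fibroblast, 56.2 and 93.2 in LLC, and 74.3 and 39.8 in Total tumor. TAM and Fibroblast overlapped, and the differences of 0.53 (95% interval -0.42 to 1.49) against Fibroblast and 1.10 (0.15 to 2.06) against LLC did not pass (limma adjusted p = 0.372 and 0.0633). The one against LLC passed when Total tumor 1 or Total tumor 2 was left out.

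Cd63, a tetraspanin of late endosomes and secreted vesicles, had its lowest mean in TAM, at 191 and 134 RPKM, beside 241 and 196 in Fibroblast, 267 and 223 in LLC, and 186 and 436 in Total tumor. It did not pass against Fibroblast (log2 -0.44, 95% interval -1.46 to 0.58, limma adjusted p = 0.495) or LLC (log2 -0.60, -1.62 to 0.41, limma adjusted p = 0.302). It was called lower against both under quantile normalization and after the correction for transcript length, with smallest adjusted p of 0.0313 and 0.00645.

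Cln3, the membrane protein affected in juvenile Batten disease, stood at 54.0 and 30.2 RPKM in TAM, 5.91 and 5.29 in Fibroblast, 18.5 and 15.4 in LLC, and 17.1 and 38.6 in Total tumor. It was low in Fibroblast and intermediate in LLC. The log2 difference was 2.65 (SE 0.42) between TAM and Fibroblast (limma adjusted p = 0.00173) and 1.21 (SE 0.42) between TAM and LLC (limma adjusted p = 0.0483). The second call ended under 9 of the 21 alternatives, among them the fits without any 1 of LLC 1, LLC 2, Fibroblast 1, Fibroblast 2 and TAM 1 (log2 0.80 to 1.62 over the fits without 1 library).

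Npc1, which moves cholesterol out of the lysosome, stood at 38.6 and 46.4 RPKM in TAM and at 8.71 to 13.1 in the other 6 libraries. Its log2 difference was 1.76 (SE 0.25) against Fibroblast (limma adjusted p = 0.000975) and 1.92 (SE 0.25) against LLC (limma adjusted p = 0.000692), and both calls held under every alternative. Ctns, the cystine exporter, was called higher in TAM as well, at means of 17.9 RPKM against 6.71 in Fibroblast and 5.73 in LLC. The Ctns call against Fibroblast ended without Fibroblast 1 or TAM 2 (log2 1.11 to 1.49). Mcoln1, a calcium channel of the lysosome, and Scarb2, the receptor that brings glucocerebrosidase to the lysosome, did not pass in either comparison. Their TAM means were 28.6 and 49.6 RPKM, beside 22.7 and 58.3 in Fibroblast and 22.1 and 57.8 in LLC.

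Glycosidases, which trim sugars from glycoproteins and glycolipids, divided into a group with high TAM levels and a group without. With aspartylglucosaminidase counted in, 5 of 10 were higher in TAM than in Fibroblast and 1 lower (17.4% and 17.3% of all genes tested). In TAM, 7 were higher and 1 lower than in LLC (15.4% and 27.5%). Gla, the alpha-galactosidase that is lost in Fabry disease, stood at 38.6 and 31.6 RPKM in TAM, 3.81 and 5.29 in Fibroblast, 2.92 and 2.08 in LLC, and 7.92 and 10.1 in Total tumor. All TAM values lay above all others and LLC held the lowest. On the log2 scale the difference was 2.71 (SE 0.28) against Fibroblast (limma adjusted p = 0.000252) and 3.37 (SE 0.28) against LLC (limma adjusted p = 0.000163).

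Neu1, the lysosomal sialidase, stood at 40.5 and 33.8 RPKM in TAM, 5.77 and 5.31 in Fibroblast, 5.70 and 4.06 in LLC, and 7.92 and 16.1 in Total tumor. Fibroblast and LLC were close to each other, and TAM was 6.70 and 7.62 times their means (log2 2.54, SE 0.35, and 2.71, SE 0.35, limma adjusted p = 0.000836 and 0.000681). Man2b1, the alpha-mannosidase, stood at 142 and 145 RPKM in TAM, 29.5 and 30.9 in Fibroblast, 19.0 and 19.5 in LLC, and 29.95 and 43.7 in Total tumor. The 2 libraries of each sorted group were nearly alike. The TAM mean was 4.76 times that of Fibroblast (log2 2.22, SE 0.24, limma adjusted p = 0.000289) and 7.47 times that of LLC (log2 2.84, SE 0.24, limma adjusted p = 0.000163).

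Hexa, a subunit of beta-hexosaminidase, was the most abundant glycosidase in TAM, at a mean of 363 RPKM, 4.36 times Fibroblast and 7.10 times LLC (limma adjusted p = 0.00376 and 0.000974). Galc, which splits galactosylceramide, averaged 15.8 RPKM in TAM, 6.68 in LLC and 1.94 in Fibroblast, and all 3 pairs of sorted groups were called different. Its call between TAM and LLC ended without LLC 1, TAM 1 or TAM 2 (log2 0.99 to 1.28). Fuca1 and Manba, the alpha-fucosidase and beta-mannosidase, were higher in both TAM and Fibroblast than in LLC (TAM means 47.95 and 16.6, Fibroblast means 34.3 and 14.1, LLC means 14.9 and 5.83 RPKM). Manba's call between TAM and LLC ended without any 1 of the 4 libraries compared (lowest log2 1.23). Glb1, the beta-galactosidase, and Aga, which releases asparagine-linked sugars, did not pass in any comparison of sorted populations. The Glb1 transcript used is a noncoding one, and with coding transcripts only no count of called genes changed.

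Gaa, the acid alpha-glucosidase that degrades glycogen, went the other way. It stood at 49.6 and 32.1 RPKM in TAM, 101 and 92.6 in Fibroblast, 88.3 and 86.3 in LLC, and 54.1 and 84.4 in Total tumor. Both TAM values were below every other library, and Fibroblast and LLC did not differ beyond their spread (log2 0.15, 95% interval -0.56 to 0.86). The log2 difference was -1.26 (SE 0.31) against Fibroblast (limma adjusted p = 0.0144) and -1.11 (SE 0.31) against LLC (limma adjusted p = 0.0218). The call against Fibroblast ended without either Fibroblast library or without TAM 2 (log2 -1.57 to -0.95), and that against LLC without either LLC library or without TAM 2 (log2 -1.42 to -0.80).

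Enzymes that degrade glycosaminoglycans, the sulfated sugar chains of proteoglycans, were called in both directions. Of 7, 3 were higher in TAM than in Fibroblast and 1 lower (17.4% and 17.3% of all genes tested). In TAM, 3 were higher than in LLC and none lower by limma (Arsb at an unadjusted p under 0.05), beside 15.4% and 27.5%. Gusb, the beta-glucuronidase, stood at 113 and 134 RPKM in TAM, 36.8 and 42.2 in Fibroblast, 35.7 and 35.4 in LLC, and 40.8 and 59.9 in Total tumor. The TAM libraries lay above all others, by log2 differences of 1.62 (SE 0.26, limma adjusted p = 0.00179) from Fibroblast and 1.76 (SE 0.26, limma adjusted p = 0.00124) from LLC. Idua, the alpha-iduronidase, stood at 16.2 and 20.05 RPKM in TAM, 5.75 and 7.14 in Fibroblast, 4.20 and 5.26 in LLC, and 6.71 and 8.50 in Total tumor. Again the TAM values did not overlap with any other. Its log2 differences were 1.36 (SE 0.27) from Fibroblast (limma adjusted p = 0.00528, not called without Fibroblast 1) and 1.74 (SE 0.27) from LLC (limma adjusted p = 0.00164).

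Arsb, the sulfatase that acts on dermatan and chondroitin sulfate, was the only gene of the 48 called highest in Fibroblast. It stood at 5.60 and 7.06 RPKM in TAM, 25.6 and 28.1 in Fibroblast, 9.22 and 14.3 in LLC, and 9.70 and 7.28 in Total tumor. Fibroblast lay above every other library and TAM below every other sorted one. On the log2 scale the difference was -1.93 (SE 0.29) between TAM and Fibroblast (limma adjusted p = 0.00132) and 1.16 (SE 0.29) between Fibroblast and LLC (limma adjusted p = 0.0168). The latter call ended without LLC 1 or without either Fibroblast library (log2 0.86 to 1.45). Between TAM and LLC the difference of -0.78 (95% interval -1.45 to -0.11) did not pass (limma adjusted p = 0.0622).

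The other enzymes of this group act on heparan, dermatan or keratan sulfate. Mean RPKM of Galns was 28.3 in TAM beside 9.84 in Fibroblast (a log2 difference of 1.44, SE 0.36, limma adjusted p = 0.0167), a call that ended without any 1 of these 4 libraries (log2 1.32 to 1.55). Mean RPKM of Sgsh was 10.6 in TAM beside 4.88 in LLC (a log2 difference of 0.97, SE 0.26, limma adjusted p = 0.0188), a call that ended without either LLC library or TAM 1 (log2 0.77 to 1.17). Ids and Naglu did not pass against either population, and in Ids the 2 TAM libraries differed, at 9.84 and 18.6 RPKM.

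Of the 9 lipid hydrolases and lipid-binding proteins, 7 were higher in TAM than in Fibroblast (17.4% of all genes tested). None was lower by limma (Arsa at an unadjusted p under 0.05), beside 17.3% of all genes. In TAM, 6 were higher and 1 lower than in LLC (15.4% and 27.5%). Psap, the precursor of the saposins, which present lipids to hydrolases, stood at 2934 and 3014 RPKM in TAM, 526 and 522 in Fibroblast, 343 and 425 in LLC, and 549.5 and 692 in Total tumor. It ranked 13 and 8 of all symbols in the TAM libraries and between 36 and 90 in the others. Psap made up 33.2 and 36.1% of the summed level of the 48 genes in TAM and 16.5 to 23.1% elsewhere. Its log2 difference was 2.50 (SE 0.40) against Fibroblast (limma adjusted p = 0.002) and 2.96 (SE 0.40) against LLC (limma adjusted p = 0.000931).

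Gm2a, the activator protein that lifts gangliosides out of the membrane for hydrolysis, stood at 139 and 174 RPKM in TAM, 17.5 and 16.8 in Fibroblast, 0.994 and 5.69 in LLC, and 21.1 and 42.0 in Total tumor. The sorted groups did not overlap, and all 3 pairs of them were called different. The log2 difference was 3.11 (SE 0.55) against Fibroblast (limma adjusted p = 0.00329) and 5.42 (SE 0.55) against LLC (limma adjusted p = 0.000283). As a percentage of the TAM mean, Gm2a stood at 0.636 and 3.64% in LLC, where the macrophage markers had medians of 0.486 and 2.88%. Their part in the LLC level was not tested.

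Pla2g15, a phospholipase, averaged 81.5 RPKM in TAM, 4.41 times Fibroblast and 6.42 times LLC (limma adjusted p = 0.000992 and 0.000399). Lipa, the acid lipase that frees cholesterol from its esters, averaged 98.1 RPKM in TAM, 36.4 in Fibroblast and 39.4 in LLC. Its call against Fibroblast ended without Fibroblast 1 (log2 1.23 to 1.58) and that against LLC without LLC 1 or TAM 1 (log2 1.12 to 1.47). Npc2, the soluble partner of Npc1, ran in the order TAM, Fibroblast, LLC, at means of 331, 169.7 and 74.5 RPKM, with each neighbour called different. The Npc2 call between TAM and Fibroblast (log2 0.96, limma adjusted p = 0.0432) ended without any 1 of the 6 sorted libraries (log2 0.88 to 1.04) and under either rescaling.

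Ppt1, the palmitoyl-protein thioesterase, averaged 98.0 RPKM in TAM, 35.3 in Fibroblast and 46.4 in LLC, and was called higher in TAM than in both. Its call against LLC ended without LLC 1 or TAM 1 (log2 0.92 to 1.22). Asah1, the acid ceramidase, was higher in TAM than in Fibroblast (means 160.1 and 53.3 RPKM, limma adjusted p = 0.00222) and did not pass against LLC (mean 99.0 RPKM, limma adjusted p = 0.065). Smpd1, the acid sphingomyelinase, had its highest mean in Fibroblast, at 19.8 RPKM, beside 12.8 in TAM and 7.83 in LLC. It was called between Fibroblast and LLC (log2 1.24, SE 0.28, limma adjusted p = 0.0115), a call that ended without LLC 1 or either Fibroblast library (log2 1.09 to 1.38).

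Arsa, the sulfatase of sulfatides, was low in TAM. It stood at 15.5 and 19.6 RPKM in TAM, 28.2 and 30.2 in Fibroblast, 47.0 and 40.7 in LLC, and 38.2 and 51.9 in Total tumor. The TAM libraries were below all others, and the order LLC, Fibroblast, TAM showed no overlap. On the log2 scale the difference was -1.28 (SE 0.25) against LLC (limma adjusted p = 0.00456). Against Fibroblast it was -0.71 (95% interval -1.28 to -0.14) and did not pass (limma adjusted p = 0.0588), though it passed under 6 of the 21 alternatives, among them the fits without Total tumor 1 or Total tumor 2.

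All 3 phosphatases and peptidases passed as higher in TAM against Fibroblast and against LLC (17.4% and 15.4% of all genes tested). Acp5, the tartrate-resistant acid phosphatase known from osteoclasts and some macrophages, stood at 81.1 and 44.3 RPKM in TAM, 7.20 and 6.56 in Fibroblast, 0.570 and 1.55 in LLC, and 11.6 and 19.5 in Total tumor. The sorted groups ran in the order TAM, Fibroblast, LLC without overlap, and the 2 TAM libraries lay apart from each other. The LLC values rest on about 8 and 9 estimated reads. The log2 difference was 2.95 (SE 0.40) against Fibroblast (limma adjusted p = 0.000816) and 4.93 (SE 0.40) against LLC (limma adjusted p = 0.000149). In LLC, Acp5 stood at 0.909 and 2.48% of its TAM mean, beside 0.619 and 3.17% for Cd68 and medians of 0.486 and 2.88% for the macrophage markers, whose part in the LLC level was not tested.

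Acp2, the tartrate-sensitive lysosomal acid phosphatase, stood at 51.0 and 56.9 RPKM in TAM, 13.8 and 15.6 in Fibroblast, 15.5 and 19.6 in LLC, and 19.2 and 25.1 in Total tumor. The TAM libraries lay above all others, by log2 differences of 1.81 (SE 0.24, limma adjusted p = 0.000717) from Fibroblast and 1.57 (SE 0.24, limma adjusted p = 0.00155) from LLC. Tpp1, a tripeptidyl peptidase, averaged 113 RPKM in TAM, 61.9 in LLC and 35.8 in Fibroblast, and all 3 pairs were called different. The call between TAM and LLC (log2 0.86) ended without any 1 of these 4 libraries (log2 0.75 to 0.97).

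All 7 proton pump genes were higher in TAM than in Fibroblast (17.4% of all genes tested), and 6 of 7 were higher than in LLC (15.4%). Both counts include Atp6v0d2, which passed the filter through its TAM levels alone. Subunit d joins the rotating stalk of the pump to its membrane sector, and Atp6v0d1 and Atp6v0d2 encode its 2 forms. Atp6v0d1 stood at 132 and 114 RPKM in TAM, 48.2 and 43.3 in Fibroblast, 39.2 and 43.1 in LLC, and 35.7 and 81.8 in Total tumor. Its log2 difference was 1.40 (SE 0.37) against Fibroblast (limma adjusted p = 0.0204) and 1.55 (SE 0.37) against LLC (limma adjusted p = 0.0118). The first call ended without any 1 of the 4 libraries compared (log2 1.29 to 1.51), and the second without either LLC library or TAM 1 (log2 1.44 to 1.66).

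Atp6v0d2, the form known from osteoclasts and some macrophages, stood at 8.65 and 7.06 RPKM in TAM, 0.039 and 0 in Fibroblast, 0 and 0.28 in LLC, and 0.64 and 0.339 in Total tumor. At the estimated depths this was about 267 reads over both TAM libraries, 1 read in Fibroblast and 3 in LLC. The ratio of TAM to Fibroblast per depth was 310.4, with an exact 95% interval of 55.2 to 12300.0, and that of TAM to LLC 100.2, with an interval of 33.9 to 489. These intervals cover counting error only, and the read numbers are estimates from RPKM steps. In limma the log2 differences were 3.11 (SE 0.26, adjusted p = 0.000142) and 2.96 (SE 0.26, adjusted p = 0.000182), on a scale where the added 1 RPKM compresses low values. Per length, Atp6v0d2 made up 6.14 and 5.85% of the 2 forms in TAM and no more than 1.76% in any other library.

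Osteoclast markers were partly present in TAM. Of the 4 tested, Nfatc1 and Ocstamp were called higher in TAM than in Fibroblast, and Ctsk and Itgb3 lower (17.4% and 17.3% of all genes tested). Nfatc1, Ocstamp and Ctsk were called higher in TAM than in LLC (15.4%). In TAM, Nfatc1 stood at 11.2 and 14.8 RPKM, Ctsk at 16.0 and 15.2, and Ocstamp at 1.97 and 1.60. Ocstamp reached 1 RPKM in the TAM libraries alone, so its calls follow in part from the filter. Of the 3 not tested, Calcr was at 0 in both TAM libraries, Oscar stood at 0.064 and 0 RPKM, and Dcstamp at 0.352 and 2.468 RPKM. The summed level of the 7 was 30.4 to 35.3 RPKM in TAM, 226 to 257 in Fibroblast, where Ctsk made up most of it, 9.52 to 14.6 in LLC and 20.6 to 23.5 in Total tumor.

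Atp6v1b2, part of the ATP-binding head of the pump, stood at 116 and 120.2 RPKM in TAM, 24.2 and 22.1 in Fibroblast, 37.1 and 34.6 in LLC, and 41.2 and 46.8 in Total tumor. TAM lay above all other libraries and Fibroblast below all others. On the log2 scale the difference was 2.30 (SE 0.21) against Fibroblast (limma adjusted p = 0.000161) and 1.69 (SE 0.21) against LLC (limma adjusted p = 0.000556). Atp6v1a, the catalytic subunit, averaged 57.2 RPKM in TAM, 28.0 in LLC and 14.3 in Fibroblast, with all 3 pairs called different. Its call between TAM and LLC ended without LLC 1 or TAM 2 (log2 0.76 to 1.25). Atp6v1h, a regulatory subunit, averaged 40.4 RPKM in TAM and 20.7 in Fibroblast (limma adjusted p = 0.0125, a call that ended without either Fibroblast library or TAM 1) and did not pass against LLC at 27.4 RPKM (limma adjusted p = 0.0785).

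Both accessory proteins were called higher in TAM than in Fibroblast and LLC. Atp6ap1 averaged 234 RPKM in TAM, 77.7 in Fibroblast and 78.1 in LLC (limma adjusted p = 0.00353 and 0.0036). Atp6ap2, also known as the prorenin receptor, averaged 83.9 RPKM in TAM, 41.9 in LLC and 16.4 in Fibroblast, and all 3 pairs were called different. Of the 16 genes called between Fibroblast and LLC, Atp6ap2 was the only one called under all 21 alternatives (log2 -1.31, SE 0.20, limma adjusted p = 0.00251).

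Other pump subunits outside the 48 were counted from a list of 18, of which 13 were tested. Of these, 9 were higher and 1 lower in TAM than in Fibroblast (17.4% and 17.3% of all genes tested). In TAM, 7 were higher and 1 lower than in LLC (15.4% and 27.5%). In Fibroblast, 5 were lower and none higher than in LLC by limma (7 and 0 at an unadjusted p under 0.05). Of all genes, 25.7% were called lower and 13% higher there. Atp6v0c, the proton-carrying ring protein, averaged 99.5 RPKM in TAM, 14.5 in Fibroblast and 26.0 in LLC, and Atp6v0a1 averaged 65.2 RPKM in TAM and 10.1 in Fibroblast. Atp6v1e1 averaged 123 RPKM in TAM and 36.6 in LLC. Atp6v0e2, a minor form, was the gene lower in both comparisons (0.528 RPKM in TAM, 2.89 in Fibroblast, 2.93 in LLC). Tcirg1, the a3 subunit typical of osteoclasts and macrophages, stood at 256 and 152 RPKM in TAM, 32.5 and 32.5 in Fibroblast and 80.0 and 53.4 in LLC (log2 2.57 and 1.58, limma adjusted p = 0.000646 and 0.0068). Between Fibroblast and LLC, Atp6v1c1 (11.3 and 26.7 RPKM) and Atp6v1g1 (15.4 and 35.9 RPKM) were the largest of the lower subunits.

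**Figure D4:**
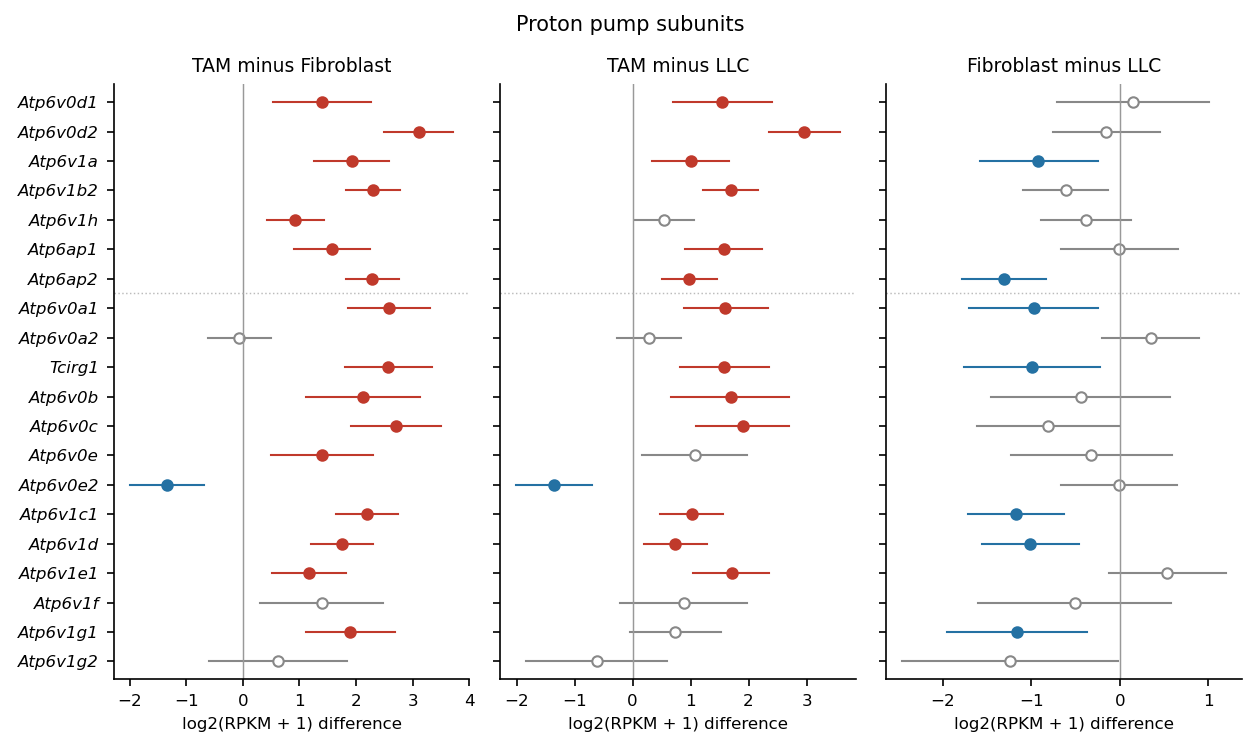
Differences of proton pump genes on the log2(RPKM + 1) scale (x axes, each with its own range) in the 3 comparisons of sorted populations, with 95% intervals from limma; red marks genes called higher, blue genes called lower and open grey circles genes not called. The 7 genes above the dotted line belong to the 48, the 13 below it are further subunits. In the left panel all 7 upper genes are red, and in the right panel no gene is red.

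Fibroblast and LLC differed less from each other in these genes. Of the 48, 10 were higher and 6 lower in Fibroblast than in LLC (13% and 25.7% of all genes tested), with a median log2 difference of 0.09 beside -0.46 for all genes. The higher genes were the 3 MiT/TFE factors, Fuca1, Manba, Arsb, Smpd1, Npc2, Gm2a and Acp5. The lower ones were Cln3, Galc, Asah1, Tpp1, Atp6v1a and Atp6ap2. This split depended on scale: it was 15 higher and 1 lower after upper-quartile rescaling, where the medians were 0.57 for the 48 genes and -0.05 for all genes, and 15 and 2 after quantile normalization, with medians of 0.45 and -0.19. It also depended on single libraries: 15 of the 16 calls ended under some fit without 1 library, with 0 higher and 2 lower without Fibroblast 1 or LLC 1, 1 and 1 without Fibroblast 2, and 5 and 1 without LLC 2.

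Whole tumors lay between the sorted populations for most of the list. The Total tumor mean fell inside the range of the 3 sorted means for 37 genes, above it for Cd63, Aga and Arsa, and below it for Lamp2, Scarb2, Ctns, Manba, Ids, Sgsh, Smpd1 and Lipa. Against Total tumor, 34 genes were higher and 1, Arsa, lower in TAM (11.3% and 23.9% of all genes tested). All 7 proton pump genes and all 3 MiT/TFE factors were among the higher ones, with Atp6v0d2 tested through its TAM levels alone. In LLC, none was higher by limma (Scarb2 at an unadjusted p under 0.05) and Gm2a, Acp5 and Gla were lower (0.0526% and 2.3% of all genes). In Fibroblast 5 were higher, namely Arsb, Smpd1, Manba, Mitf and Sgsh, and 6 lower, namely Cd68, Cln3, Galc, Atp6ap2, Atp6v1b2 and Gla (12.1% and 30% of all genes). In whole tumors fewer cells of a type and less RNA per cell cannot be told apart.

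The 2 Total tumor libraries differed more than those of any sorted group, with a median absolute log2 difference of 0.58 over the 48 genes, beside 0.26 in LLC, 0.14 in Fibroblast and 0.23 in TAM. Their markers differed too, in both directions. In Total tumor 1 and 2, macrophage markers summed to 1132 and 3999.8 RPKM and neutrophil markers to 133 and 597 RPKM. B and plasma cell markers summed to 56.2 and 3.01 RPKM in these libraries, and T and NK cell markers to 50.2 and 9.89 RPKM. Within the macrophage list, Mertk stood at 11.1 and 1.79 RPKM, Itgam at 53.6 and 57.7, and C1qa at 181 and 903. The part of these differences in the results was not tested. The 34 genes higher in TAM became 18 without TAM 1 or TAM 2, and 10 in a fit of these 2 groups alone. Without Total tumor 1, 4 genes were lower in TAM, 13 in LLC and 20 in Fibroblast, where 8 were higher, and without Total tumor 2 the lower counts were 1, 0 and 6. No gene was lower in TAM without TAM 1, and none was lower in LLC without LLC 1, either Fibroblast library or either TAM library. Without Fibroblast 1, 2 genes were higher and 3 lower in Fibroblast, and without Fibroblast 2, 0 were higher and 1 lower. The median of the 48 genes between Fibroblast and Total tumor was -0.24 and turned to 0.36 after upper-quartile rescaling and 0.29 after quantile normalization, with 11 higher and 3 or 4 lower genes.

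Most of the lysosomal genes had substantial levels in LLC and Fibroblast relative to TAM. The 12 macrophage markers set beside them were listed as genes known from macrophages, so their low percentages in LLC and Fibroblast follow in part from that choice. As a percentage of the TAM mean, the median of the 48 genes was 35.3 and 37.2% in the LLC libraries, 33.2 and 36.4% in Fibroblast, and 38.5 and 46.8% in Total tumor. The medians of the 12 macrophage markers were 0.486 and 2.88% in LLC, 1.23 and 1.41% in Fibroblast, and 9.93 and 23.0% in Total tumor. Mertk, a receptor for dying cells and 1 of the 12, stood apart at 34.7 and 41.2% in LLC. Cd68 was the lysosomal gene closest to the marker medians in Fibroblast, at 1.09 and 1.56% of the TAM mean. Atp6v0d2 lay below every marker there, at 0.496 and 0%. At the upper end, Arsb reached 405 and 445% of the TAM mean in Fibroblast.

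**Figure D5:**
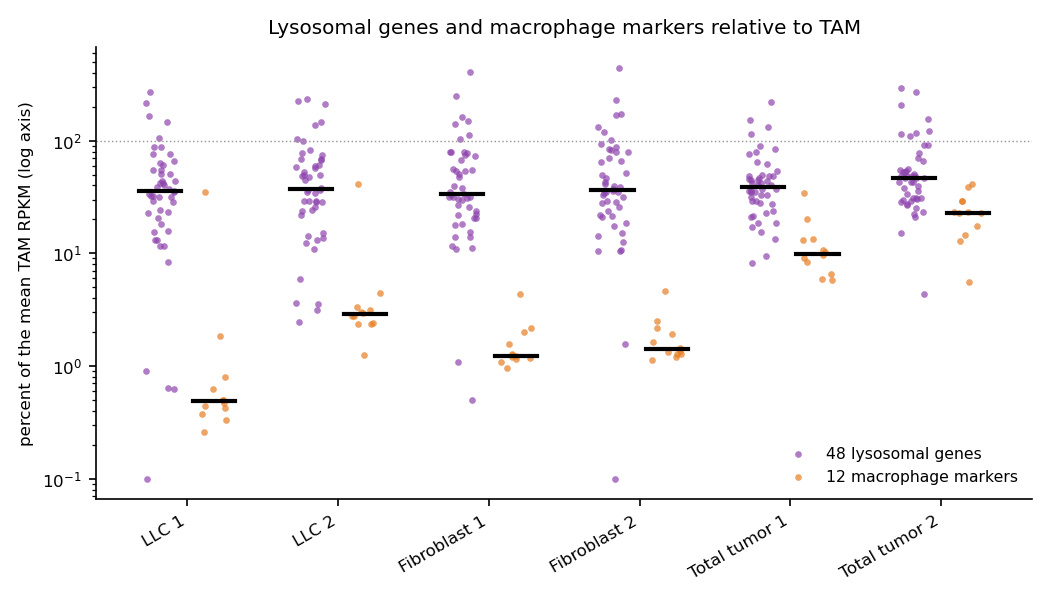
Level of the 48 lysosomal genes (purple) and 12 macrophage markers (orange) in each LLC, Fibroblast and Total tumor library, as a percentage of the gene's mean RPKM in TAM, on a log axis; each point is a gene, black lines are medians and the dotted line marks 100%. Atp6v0d2, at 0 in LLC 1 and Fibroblast 2, is drawn at 0.1%. The purple medians lie between 33.2 and 46.8% in all 6 libraries, and the orange ones between 0.486 and 23.0%.

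Further genes of the lysosomal pathway were counted from lists of genes outside the 48. Beside each list's counts between Fibroblast and LLC, 13% of all genes tested were called higher in Fibroblast and 25.7% lower. Of 25 other hydrolases and cofactors, 11 were higher in TAM than in Fibroblast (17.4% of all genes tested) and 17 higher than in LLC (15.4%). None was lower in either by limma, also at an unadjusted p under 0.05, beside 17.3% and 27.5% of all genes called lower. The medians were 0.92 and 1.39. Ctsa, the carboxypeptidase that protects Neu1 and Glb1, averaged 506 RPKM in TAM, 59.3 in Fibroblast and 50.1 in LLC. Fuca2 averaged 28.3 RPKM in TAM and 3.67 in Fibroblast, and Naaa, an acid amidase, 168 RPKM in TAM, 32.1 in Fibroblast and 10.6 in LLC. Between Fibroblast and LLC 4 were higher, led by Man2b2 (53.4 and 17.2 RPKM) and Naaa, and none lower by limma (Hyal2 and Siae at an unadjusted p under 0.05).

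Of 22 other membrane proteins and transporters tested, 11 were higher and 3 lower in TAM than in Fibroblast (17.4% and 17.3% of all genes tested). In TAM, 11 were higher and 4 lower than in LLC (15.4% and 27.5%). Laptm5, a lysosomal protein of blood cells, averaged 695 RPKM in TAM, 13.7 in Fibroblast and 15.1 in LLC. Slc11a1, the metal ion transporter of phagosomes known as Nramp, averaged 190.4, 3.42 and 3.38 RPKM in the same order. On the other side, Laptm4b averaged 2.84 RPKM in TAM, 8.56 in Fibroblast and 44.3 in LLC, Cd164 93.3 in TAM and 225 in Fibroblast, and Abcb9 0.788 in TAM and 6.28 in LLC. Between Fibroblast and LLC 3 were higher, among them Slc36a1 and Sidt2 (log2 1.32 and 1.31), and 2 lower, Laptm4b and the channel Tpcn1 (log2 -2.25 and -2.11).

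Of 12 genes for sorting and activating lysosomal enzymes, 7 were higher and 2 lower in TAM than in Fibroblast (17.4% and 17.3% of all genes tested). Against LLC, 4 were higher and 1 lower in TAM (15.4% and 27.5%). Cln8, which carries new enzymes out of the endoplasmic reticulum, averaged 24.9 RPKM in TAM, 3.07 in Fibroblast and 1.53 in LLC, and Nagpa, which uncovers the mannose 6-phosphate tag, 40.5, 10.6 and 10.9 RPKM. Igf2r, the large receptor for that tag, was lower in TAM, at 9.95 RPKM beside 24.2 in Fibroblast and 55.0 in LLC, and Gga2, an adaptor, was lower than in Fibroblast (7.28 and 17.8 RPKM). Between Fibroblast and LLC, Gga2 and Sort1 were higher (log2 1.47 and 1.01) and Gga3 and Igf2r lower (log2 -1.34 and -1.13).

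From a list of nutrient sensing at the lysosome and Tfec, 18 genes were tested. Of these, 6 were higher in TAM than in Fibroblast (17.4% of all genes tested). None was lower by limma, also at an unadjusted p under 0.05 (17.3% of all genes called lower). In TAM, 5 were higher and 2 lower than in LLC (15.4% and 27.5%). Beside Tfec, Fnip2 was higher than in Fibroblast (15.4 and 2.51 RPKM) and Lamtor4, part of the scaffold for mTOR signalling, was higher than in LLC (57.5 and 16.2 RPKM). Tsc2 and Rptor, parts of the mTOR pathway, were lower in TAM than in LLC (log2 -0.92 and -0.74, limma adjusted p = 0.0213 and 0.0468). Rptor was the only gene of the list called between Fibroblast and LLC (log2 -1.19).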

How the data were processed

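RNA of 8 libraries in 4 groups of 2 (Total tumor, LLC, Fibroblast, TAM) was measured, and groups were taken from the labels. The authors deposited 1 table of RPKM values for 31645 transcripts. The submitters' processing notes name STAR, HOMER and the genome build mm9, without versions. The strand setting is not given in the sources used here, so reads of overlapping and antisense genes cannot be told apart. The RPKM values were used without rescaling, and 3 transcripts with no gene name were left out. Read counts were not used; depth was estimated from the steps between low RPKM values, of which 60.1 to 65.4% fell within 0.05 reads of a whole number (medians of 4.5 to 6.9% at other depths).

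Genes with at least 1 RPKM in 2 libraries (13311) were tested on log2(RPKM + 1), with a pseudocount of 1, in 1 fit of all 8 libraries with limma 3.58.1 in R 4.3.3 and a mean-variance trend (4 residual and 3.62 prior degrees of freedom). All 6 pairs of groups were compared, and Benjamini-Hochberg adjusted p-values under 0.05 over all genes tested were called. With 2 libraries a group, an exact permutation test cannot reach this threshold. The procedure was run on simulated data in which a small set of genes differed, in TAM alone. Far more genes were called between the real groups, so that run cannot show how the procedure performs on them. Figures, promoter searches and summaries used Python 3.11.15 with pandas 2.3.3.

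The 48 genes, the other lists and the rule for named genes were chosen with earlier results of these data known. The rule gives values in every library for the 2 largest called differences of TAM from Fibroblast or LLC in each role, for genes called lower in TAM, and for Tfeb, Tfe3, Mitf, Atp6v0d1, Atp6v0d2, Acp5, Lamp1, Lamp2, Cd68 and Cd63. Of the other lists it names up to 2 called genes per direction and comparison, and Tfec and Tcirg1. Promoter coordinates belong to RefSeq on build GRCm38.p6 and not to the build of the authors' table. Alternatives were other pseudocounts, filters, scalings, a correction for transcript length, fits without the variance trend, with the replicate number or of only the groups compared, the mean over transcripts, and the fit without each library. Coding transcripts only and a crossed replicate number were added after the data were seen.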

Additional observations from a re-analysis of the deposited data

How the results depend on the processing

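The counts of genes higher in TAM than in Fibroblast (32) and in LLC (33) stayed within 1.5 times under all 21 alternatives, and no called gene reversed in any comparison. The other counts moved further under these settings. Upper-quartile rescaling gave 4 lower in TAM than in Fibroblast, 1 lower in Fibroblast than in LLC, 2 highest in Fibroblast, and 11 higher and 3 lower in Fibroblast than in Total tumor. Quantile normalization gave 4 lower in TAM than in Fibroblast, 2 lower in Fibroblast than in LLC, 11 higher in Fibroblast than in Total tumor and 2 lower in TAM than in Total tumor. The length correction gave 4 lower in TAM than in LLC, 2 lower in TAM than in Total tumor and 13 lower in Fibroblast than in Total tumor. A fit of only the groups compared gave 10 higher and 0 lower in TAM than in Total tumor, 0 lower in LLC than in Total tumor, 2 higher in Fibroblast than in Total tumor and 1 highest in LLC. With no filter 0 were lower in LLC than in Total tumor. The causes were not tested.

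Without 1 library each, the counts higher and lower ran from 23 to 33 and 1 to 3 for TAM against Fibroblast, 23 to 39 and 1 to 3 for TAM against LLC, 0 to 13 and 1 to 9 for Fibroblast against LLC, 18 to 38 and 0 to 4 for TAM against Total tumor, 0 to 1 and 0 to 13 for LLC against Total tumor, and 0 to 8 and 1 to 20 for Fibroblast against Total tumor. Genes highest in TAM ran from 19 to 33, in Fibroblast from 0 to 1 and in LLC from 0 to 1. In these fits the lone library of a group is assumed to vary like the other groups.

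Replicate numbers are shared between groups, but the labels do not say that they pair samples, and same-numbered libraries deviated together in the sorted groups (correlations of 0.16 to 0.27) and not with Total tumor (-0.36 to -0.18). With the replicate block, 30 genes were higher and 2 lower in TAM than in Fibroblast, 32 and 2 than in LLC, 8 and 4 in Fibroblast than in LLC, 30 and 1 in TAM than in Total tumor, 0 and 2 in LLC, and 4 and 5 in Fibroblast than in Total tumor, with 26 highest in TAM, 1 in Fibroblast and 0 in LLC. With the Total tumor numbers crossed in that block, added after the data were seen, 2 were lower in TAM and 11 lower in Fibroblast than in Total tumor.

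At about 4280000 to 10370000 reads a library, Atp6v0d2 had under 20 estimated reads in every library but those of TAM, and Acp5 had about 8 and 9 in the LLC libraries, so these levels are imprecise.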
